A study of Mus musculus with 9 samples.

Results

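The 68 genes described here encode the collagens and laminins that build the extracellular matrix, together with fibronectin, fibrillin-1, elastin, SPARC, periostin, the lysyl oxidases and a few small proteoglycans. They are every gene symbol of a collagen alpha chain or laminin chain, plus 13 further matrix genes chosen by name, out of 45535 named genes in the table. RNA was sequenced from CD103+ dendritic cells of C57BL/6J mouse lung in 9 samples. All of the mice had received bleomycin for 7 days, a drug used to provoke lung fibrosis, so both groups carry that treatment. In 5 samples the RNA was taken directly after collagenase digestion and magnetic bead selection of CD103+ cells. In the other 4 the selected cells were first cultured for 18 h in RPMI, supplemented with 10% serum (FBS) and 1% penicillin and streptomycin. The labels give no age, sex or number of mice per sample, and their extraction text speaks of lung RNA while their cell type is CD103+ dendritic cells. Since nothing says that samples came from separate mice, p-values here measure only the spread between samples.

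Collagens are trimers of alpha chains. Fibrillar collagens give tissue its tensile strength, collagen IV and the laminins form the sheets of the basement membrane, and collagen VI makes beaded filaments close to cells. Elastin is deposited on fibrillin microfibrils, and lysyl oxidases cross-link both collagen and elastin. In lung these proteins come mainly from fibroblasts, smooth muscle, endothelium and epithelium, whereas fibronectin is also made by macrophages. After bleomycin, fibroblasts deposit collagen I and collagen III in the scar.

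Values are normalized read counts, that is, whole reads divided by a factor for the depth of each sample. A gene was tested when its mean over all samples reached 10, on the scale log2(value + 1), on which changes of low-count genes come out too small. A gene was called when its limma p, adjusted over all 18202 tested genes, was under 0.05. Depth in named genes was 14.7 to 35.3 M reads per sample, and 1 read was worth 0.758 to 1.79 normalized counts. Markers of type 1 conventional dendritic cells were abundant before culture, with a summed count of 158050.3 to 188660.5 per sample, and lower after it, at 45637 to 48051. Of 12 such markers 9 fell and 3 rose, beside 34.6% of all tested genes that fell and 34.2% that rose. Wdfy4 made up the largest share of the sum, with a mean of 75717 before and 4761 after culture. Itgae, which encodes CD103 itself, had a mean of 18138 before and 1727 after, while Flt3, Batf3 and Zbtb46 rose 1.60-fold, 1.46-fold and 1.21-fold. Transcripts of fibroblasts, endothelium, epithelium and macrophages were also present in every sample.

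Matrix transcripts fell after culture in most of their classes, and the exceptions were few. Of the 68 genes, 57 could be tested, and 45 of these fell, 3 rose and 9 did not pass the test. Across all tested genes 34.6% fell and 34.2% rose, with 68.8% called in either direction, whereas 78.9% of the tested matrix genes fell and 5.26% rose. Their median log2 fold change was −1.67, beside 0.0065 for all tested genes. For 42 of the matrix genes every cultured sample was lower than every uncultured one, and for 2 every cultured sample was higher. The same held for 28.6% and 28.7% of all tested genes. At least a 2-fold decrease was seen in 37 matrix genes and at least an 8-fold decrease in 11, as ratios of group means. The share of all tested genes with such decreases was not counted, so these counts cannot be set against it. In bulk RNA, fewer cells of a type and less RNA per cell cannot be told apart, and this applies to each of these values.

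**Figure D1:**
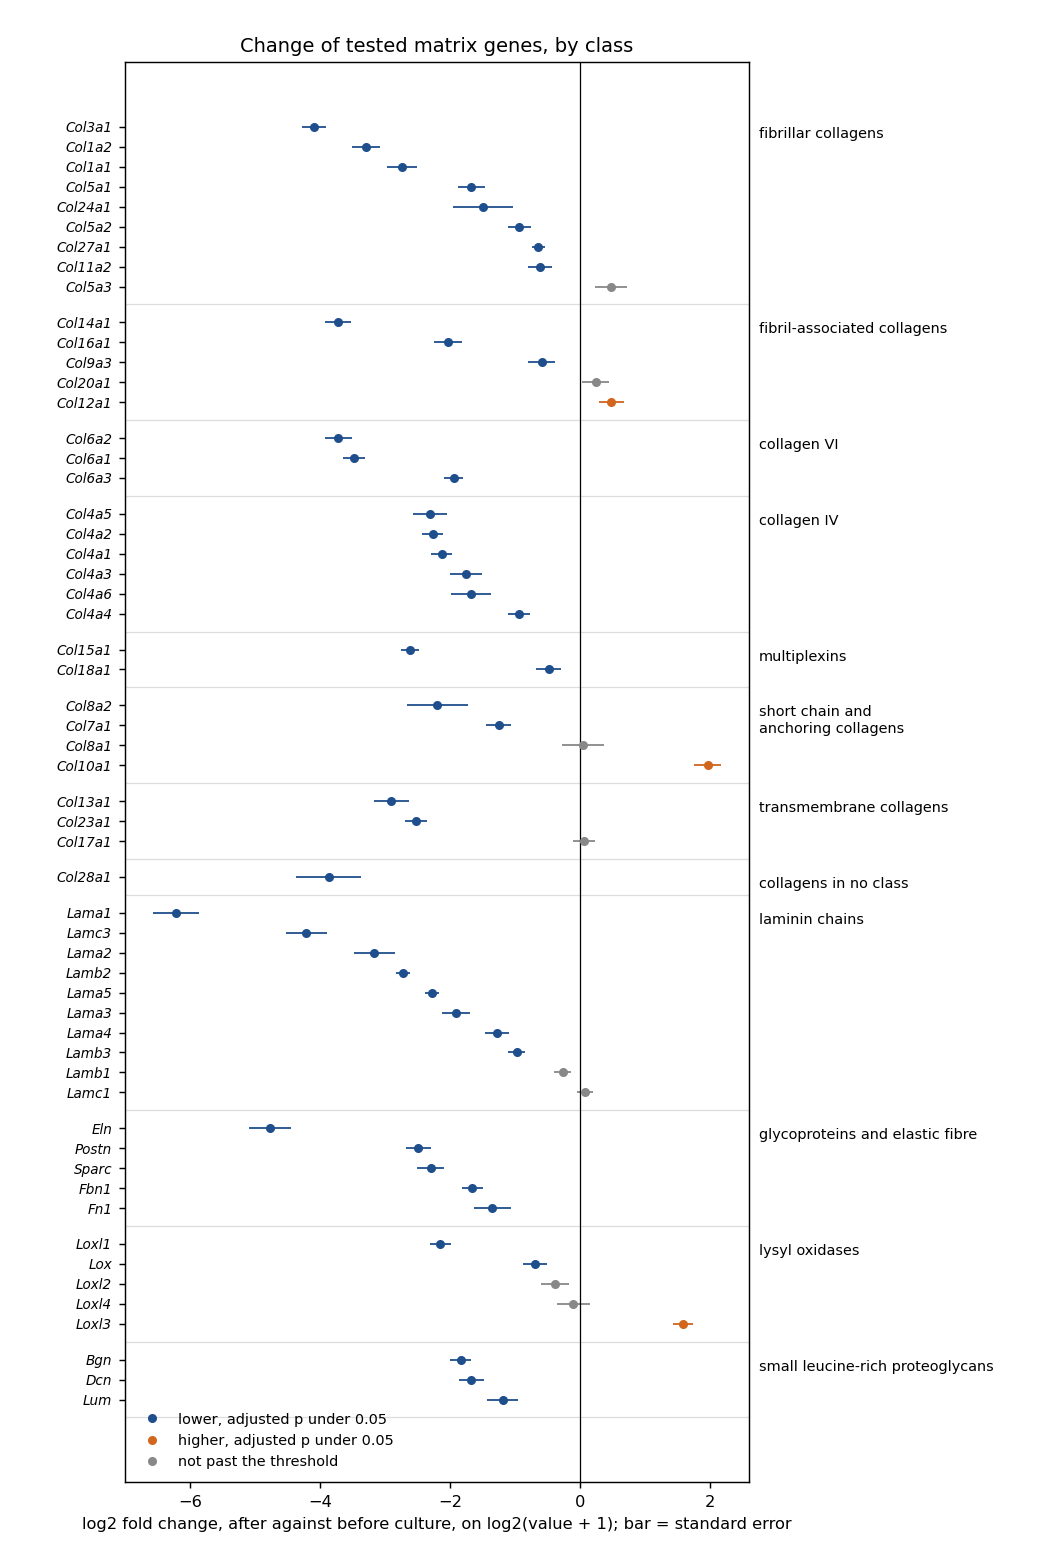
Log2 fold change of 56 of the 57 tested matrix genes, after against before culture, on the log2(value + 1) scale, with bars of 1 standard error and genes grouped by class. Points in blue (lower) lie left of 0 in every class, from −6.22 for Lama1, and the 3 genes in orange (higher) are Col10a1, Loxl3 and Col12a1.

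The matrix genes took up a small part of each library. They held 0.625 ± 0.136% of named reads before culture (SD, n = 5) and 0.213 ± 0.0533% after it (SD, n = 4). Fibronectin alone made up 46.3 to 65.0% of that matrix fraction before culture and 52.2 to 73.2% after it. Without Fn1 the remaining members held 0.274 ± 0.0549% before and 0.0692 ± 0.0108% after.

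Promoter sequences of 3 members are shown, of a gene that fell steeply, the gene that rose most and an abundant gene that fell about as much as the median member. Col3a1 encodes the chain of fibrillar collagen III and fell 16.9-fold, Col10a1 encodes the network collagen of cartilage and rose 4.02-fold, and Bgn encodes the proteoglycan biglycan and fell 3.57-fold. Each sequence covers the 250 bases before the RefSeq start of the gene (GRCm38.p6), on its plus strand, at chr1:45311288-45311537 for Col3a1, chr10:34389731-34389980 for Col10a1 and chrX:73483351-73483600 for Bgn. Capitals mark the letters TATAAA in the first 2 and the letters GGGCGG, read on the opposite strand, in Bgn.
Col3a1: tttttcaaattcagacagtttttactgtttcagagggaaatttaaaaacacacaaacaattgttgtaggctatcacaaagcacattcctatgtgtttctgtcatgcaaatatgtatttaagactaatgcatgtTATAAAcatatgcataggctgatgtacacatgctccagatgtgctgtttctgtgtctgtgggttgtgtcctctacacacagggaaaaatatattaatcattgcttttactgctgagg
Col10a1: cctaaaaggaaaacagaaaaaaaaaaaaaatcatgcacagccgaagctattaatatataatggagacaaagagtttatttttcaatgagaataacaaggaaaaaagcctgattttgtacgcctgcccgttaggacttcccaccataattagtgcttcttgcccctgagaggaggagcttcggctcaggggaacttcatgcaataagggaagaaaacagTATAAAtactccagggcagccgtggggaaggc
Bgn: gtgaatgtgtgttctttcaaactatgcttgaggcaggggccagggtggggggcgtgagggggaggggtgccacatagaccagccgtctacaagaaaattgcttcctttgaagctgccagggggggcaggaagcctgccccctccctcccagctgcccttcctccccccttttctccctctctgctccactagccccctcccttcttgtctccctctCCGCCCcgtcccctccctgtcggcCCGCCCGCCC

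The Col10a1 window has the letters TATAAA 32 to 27 bases before the start, and the Col3a1 window has them 117 to 112 bases before it. The windows of Col3a1 and Col10a1 are poor in G and C, at 35.2% and 41.6%, and that of Bgn is rich in them, at 64.4%. RefSeq windows were found for 45 of the 68 genes, 50 windows in all. Searched on both strands, TATAAA occurred in 6 of the 50 and in 12.4% of 32851 windows of all genes. The letters CCAAT occurred in 14 of the 50 and in 33.8% of all windows. The letters GGGCGG occurred in 27 of the 50, or 54.0%, and in 32.7% of all windows. These matches are descriptions of letters and were not compared with expression.

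Fibrillar collagens fell in 8 of 9 tested cases, with a median log2 fold change of −1.49. Col1a1 and Col1a2 encode the chains of collagen I, the main collagen of scar tissue. Col1a1 counted 13947, 9477, 15097, 7350.5 and 8087 in the 5 samples before culture and 1693, 2236, 1355 and 1121 in the 4 after. Col1a2 counted 4775, 3649, 5459, 2832 and 2762 before and 371, 567, 338 and 302 after. Neither gene overlapped between the groups, and replicate 3 was the highest of the uncultured samples for both. Col1a1 fell 6.74-fold (log2 −2.74, SE 0.228, adjusted p = 1.72e-07) and Col1a2 fell 9.88-fold (log2 −3.29, SE 0.215, adjusted p = 1.55e-08).

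Col3a1, whose promoter is shown above, counted 5347, 4660.3, 5915, 4146 and 3451 before culture and 229, 386, 291 and 206 after it. Its log2 fold change of −4.09 (SE 0.182, adjusted p = 3.57e-10) was the lowest among fibrillar collagens. Col5a2 lies 24.6 kb from Col3a1 on chromosome 1 and encodes a chain of collagen V, which sets the diameter of collagen I fibrils. It counted 1169, 859, 1364, 762 and 786 before and 446, 600.5, 570.5 and 419.7 after, and its log2 fold change was −0.93 (SE 0.174, adjusted p = 0.000328). Col5a1, the other main chain of collagen V, fell further, from 1290.5 ± 409 (SD, n = 5) to 396 ± 83.0 (SD, n = 4), with a log2 fold change of −1.67 (SE 0.203, adjusted p = 7.08e-06). All 3 genes were separated between the groups.

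The smaller fibrillar genes moved less. Col27a1 went from 578 ± 57.9 to 371 ± 35.3 (log2 −0.64, adjusted p = 9.72e-05) and Col11a2 from 219 ± 37.0 to 145 ± 40.8 (log2 −0.61, adjusted p = 0.00921, groups overlapping). Both calls were lost after a correction for GC content and gene length, where the log2 values became 0.06 and 0.21. Col24a1 was near the lower limit of the test, with means of 16.1 and 4.84, and its log2 fold change was −1.49 (SE 0.461, adjusted p = 0.0112). Col5a3 had a higher mean after culture, 216 against 155, and did not pass (log2 0.48, SE 0.243, adjusted p = 0.0936). It passed after the GC and length correction, at a log2 value of 1.25, and with upper quartile scaling, quantile normalization, without replicate 3 before culture or without replicate 4 after it. Col2a1 and Col11a1 had means under 10 and were not tested.

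**Figure D2:**
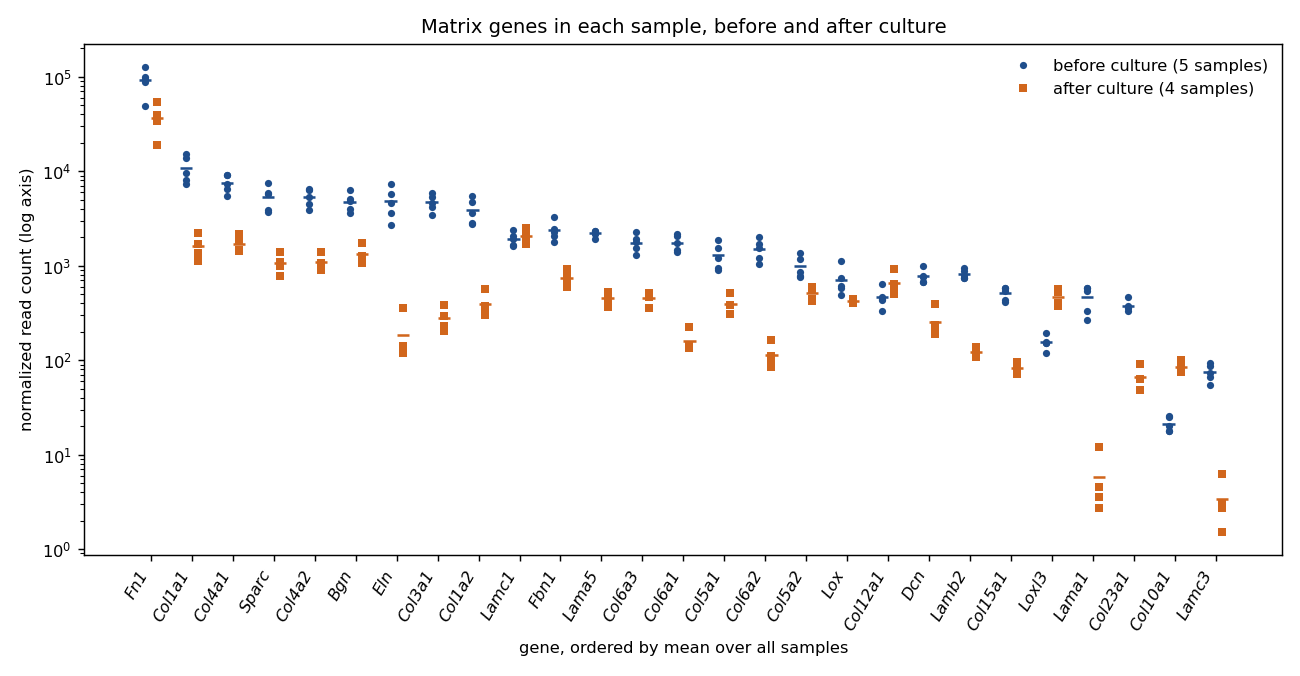
Normalized read counts (log axis) of 27 matrix genes in each of the 5 samples before and 4 samples after culture, with a bar at each group mean and genes ordered by their mean over all samples. Fn1 lies far above the rest and its groups overlap, Lamc1 lies at the same level in both groups, and Lama1 and Lamc3 fall to between 1.52 and 12.2 counts.

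Fibril-associated collagens, which decorate the surface of collagen fibrils, were split. Col14a1 fell 13.7-fold, from 435 ± 100.1 to 31.8 ± 7.16 (log2 −3.73, SE 0.201, adjusted p = 2.36e-09), and Col16a1 fell 4.26-fold, from 163 ± 44.0 to 38.2 ± 4.96. Col9a3 fell 1.55-fold (log2 −0.58, adjusted p = 0.0228), a call that was lost with upper quartile scaling, quantile normalization, the GC and length correction, or without replicate 1 after culture. Col12a1 was the abundant member that did not fall. It counted 467, 448, 644, 434 and 331 before culture and 508, 917, 647 and 541 after, so the highest uncultured sample lay within the cultured range. Its rise of 1.41-fold passed (log2 0.48, SE 0.190, adjusted p = 0.0364) with overlapping groups. The call held in 3 of 9 fits that left out 1 sample, with adjusted p from 0.00831 to 0.127, and the largest p came without replicate 2 after culture. It was also lost with sample weights (adjusted p = 0.0893). Col20a1 did not pass (116 ± 24.4 against 140 ± 41.3, adjusted p = 0.305), although it did after the GC and length correction (log2 0.72). Col9a1, Col9a2, Col19a1 and Col22a1 were too low to test. Col19a1 had 0, 0, 1, 0 and 0 reads before culture and 2, 4, 5 and 3 after.

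Collagen VI fell as a group of 3 abundant chains, with a median log2 fold change of −3.47. Col6a1 counted 2049, 1734, 2149.6, 1451 and 1412 before culture and 133, 223, 141 and 139 after. Col6a2 counted 1709, 1529.5, 2015, 1040.4 and 1217 before and 111, 165, 85.5 and 95.0 after. Col6a3 counted 1919.5, 1762, 2249, 1538 and 1296 before and 465, 516, 463 and 361 after. In counts not divided by transcript length, all 3 started close together, and Col6a1 and Col6a2 ended below Col6a3. Per kilobase of the longest transcript, Col6a1, Col6a2 and Col6a3 started apart, at 429, 306 and 173. They ended at 38.8, 23.2 and 44.6 per kb. The fall was 11.1-fold for Col6a1 (log2 −3.47, SE 0.167, adjusted p = 7.70e-10), 13.2-fold for Col6a2 (log2 −3.71, SE 0.207, adjusted p = 3.17e-09) and 3.89-fold for Col6a3 (log2 −1.94, SE 0.147, adjusted p = 6.55e-08). The chains Col6a4, Col6a5 and Col6a6 had means under 10 over all samples and were not tested.

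Collagen IV, the network collagen of basement membranes, fell in 6 of 6 chains with a median log2 fold change of −1.94. Col4a1 counted 7380.2, 9154, 9133, 6522 and 5486 before culture and 1469, 2147, 1823 and 1425 after (log2 −2.13, SE 0.158, adjusted p = 5.67e-08). Col4a2 counted 5338, 6312, 6475, 4474 and 3872 before and 1024, 1395, 1066 and 894 after (log2 −2.26, SE 0.157, adjusted p = 2.76e-08). These 2 genes stand head to head on chromosome 8, Col4a1 at 11198423 to 11312826 on the minus strand and Col4a2 at 11312805 to 11449287 on the plus strand, with 22 bases in common (GRCm38). Col4a3 and Col4a4, whose products form the network of the alveolar basement membrane together with that of Col4a5, are 71 bases apart. Col4a3 fell from 86.4 ± 17.2 to 25.3 ± 7.59 (log2 −1.75) and Col4a4 from 121 ± 20.7 to 62.7 ± 6.55 (log2 −0.93). Col4a5 and Col4a6, which are 1308 bases apart, went from 102 to 20.3 and from 33.1 to 9.91. No chain of collagen IV overlapped between the groups.

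The multiplexins Col15a1 and Col18a1 link basement membranes to the tissue around them. Col15a1 counted 582, 542, 581, 430.2 and 415 before culture and 70.7, 75.1, 86.4 and 96.6 after, a 6.21-fold fall (log2 −2.61, SE 0.143, adjusted p = 2.81e-09). Col18a1 went from 298 ± 70.2 to 213 ± 47.4 with overlapping groups (log2 −0.48, SE 0.195, adjusted p = 0.0422). Its call was lost in 5 of the fits that left out a sample, with upper quartile scaling and with quantile normalization, and the GC and length correction turned its log2 value to 0.24.

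Short chain and anchoring collagens held the strongest rise among the 57 tested matrix genes. Col10a1 counted 25.7, 24.7, 18.0, 20.1 and 17.9 before culture and 99.8, 87.9, 80.1 and 74.5 after. Every cultured sample lay above every uncultured one, and the log2 fold change was 1.97 (SE 0.205, adjusted p = 1.65e-06). In GENCODE M21, 0.575% of the exonic bases of Col10a1 lie on the opposite strand of exons of Nt5dc1. Whether reads were counted by strand is not stated, so reads from that gene cannot be told apart there. Col8a2 fell from 19.9 to 4.56, and Col7a1, which forms the anchoring fibrils under epithelium, fell from 99.8 ± 11.8 to 42.3 ± 11.4 (log2 −1.25, adjusted p = 7.54e-05). The Col7a1 call was lost after the GC and length correction (log2 −0.43). Col8a1 stayed at 17.9 and 18.1 and did not pass.

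Of the transmembrane collagens, which sit in the plasma membrane of the cell that makes them, Col23a1 and Col13a1 fell. Col23a1 counted 355, 374, 333, 464 and 362 before culture and 63.6, 62.9, 90.1 and 47.9 after (log2 −2.52, SE 0.170, adjusted p = 2.09e-08). Col13a1 fell 8.09-fold, from 88.8 ± 25.4 to 11.0 ± 3.31. Col17a1, a component of epithelial hemidesmosomes, did not pass (93.9 ± 18.2 against 97.4 ± 10.3, adjusted p = 0.744), although it did after the GC and length correction (log2 0.60). Outside these classes, Col28a1 fell from 31.6 ± 11.3 to 1.74 ± 2.41, with 0, 7, 1 and 1 reads after culture.

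Laminins are trimers of an alpha, a beta and a gamma chain. Of 11 laminin genes 8 fell and 3 did not pass, with a median log2 fold change of −1.90. All 5 alpha chains fell. Lama5, the main alpha chain of mature lung basement membrane, counted 2239, 2356, 2320.1, 2189.6 and 1924 before culture and 428, 522, 529 and 363 after (log2 −2.27, SE 0.112, adjusted p = 9.53e-10). Lama1 counted 581, 580.4, 545, 269.5 and 331 before and 3.53, 4.55, 2.73 and 12.2 after, which were 4, 6, 3 and 16 reads. That 80.3-fold fall was the steepest of the 57 tested matrix genes (log2 −6.22, SE 0.353, adjusted p = 3.93e-09). Lama2, the chain of muscle and mesenchymal laminins, fell 8.99-fold from 374 ± 118 to 41.6 ± 17.5, Lama3 3.89-fold and Lama4 2.46-fold.

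The beta and gamma chains divided. Lamb2 counted 739.8, 936, 881, 790.1 and 734 before culture and 124, 124, 138 and 107 after (log2 −2.72, SE 0.110, adjusted p = 1.61e-10). Lamc3 counted 55.2, 86.6, 94.2, 67.0 and 73.4 before and 6.18, 1.52, 2.73 and 3.04 after (log2 −4.21, SE 0.321, adjusted p = 7.33e-08). Lamb3 fell 1.96-fold. Lamc1, the gamma chain shared by most laminins, counted 1935, 2074, 2377, 1671 and 1625 before and 2105, 2497, 1715 and 1854 after. The ranges of Lamc1 overlapped, and it did not pass (log2 0.08, SE 0.127, adjusted p = 0.610), although it did after the GC and length correction (log2 0.45). Lamb1 went from 397 ± 69.4 to 328 ± 29.7 and did not pass (adjusted p = 0.0900), although it passed as lower with sample weights or without replicate 5 before culture.

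Among the glycoproteins and elastic fibre genes 5 of 5 fell, with a median log2 fold change of −2.30. Fn1, which encodes fibronectin, was the most abundant matrix transcript. It counted 94049, 88129.8, 126300.4, 49400.2 and 100130.3 before culture and 34301, 54567, 19193 and 39562 after. Replicate 2 after culture lay above replicate 4 before it, so the groups overlapped. The fall was 2.48-fold (log2 −1.34, SE 0.286, adjusted p = 0.000918). Eln, which encodes elastin, counted 5770.1, 4657, 7405, 2708 and 3649.8 before and 126, 358, 118 and 143 after, a 26.0-fold fall (log2 −4.77, SE 0.322, adjusted p = 2.15e-08). Fbn1, which encodes the microfibril protein fibrillin-1, fell less, from 2383 ± 570.3 to 750.0 ± 138 (log2 −1.65, SE 0.161, adjusted p = 8.10e-07).

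Sparc, which encodes a collagen-binding protein that takes part in collagen deposition, counted 5796, 5819, 7593, 3875 and 3703 before culture and 1003, 1409, 1097 and 787 after. It fell 4.99-fold without overlap (log2 −2.30, SE 0.205, adjusted p = 3.52e-07). Postn, which encodes periostin, a protein of activated fibroblasts, fell 5.79-fold, from 238 ± 60.2 to 41.0 ± 6.41 (log2 −2.48, adjusted p = 8.65e-08).

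The small leucine-rich proteoglycans, which bind collagen fibrils, fell in 3 of 3 cases. Bgn counted 5036, 4826, 6358, 3959 and 3653 before culture and 1262, 1742, 1260.2 and 1069.7 after (log2 −1.83, SE 0.160, adjusted p = 2.88e-07). Dcn, which encodes decorin, counted 675, 767, 785, 1002 and 675 before and 196, 389.7, 237 and 188 after (log2 −1.67, SE 0.192, adjusted p = 4.09e-06). Lum, which encodes lumican and lies 47.0 kb from Dcn on chromosome 10, fell 2.35-fold from 78.7 ± 22.4 to 33.5 ± 6.55. Replicate 2 was the highest cultured sample for Bgn and Dcn.

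Lysyl oxidases moved in both directions. Lox counted 748, 614, 1116, 486 and 584 before culture and 425, 407, 445 and 413 after (log2 −0.69, SE 0.184, adjusted p = 0.00463), and Loxl1 fell 4.56-fold from 536 ± 129 to 118 ± 6.64. Loxl3 rose. It counted 153, 151, 192, 119 and 156 before and 528, 372, 560.5 and 404 after, a 3.03-fold increase without overlap (log2 1.59, SE 0.157, adjusted p = 1.01e-06). In GENCODE M21, 11.6% of the exonic bases of Loxl3 lie on the opposite strand of exons of Htra2, which encodes a mitochondrial protease. Htra2 also rose, 2.43-fold from 555 ± 41.8 to 1352 ± 135. Whether reads were counted by strand is not stated, so reads from the shared stretch cannot be told apart. Loxl2 (150 ± 37.2 against 115 ± 30.8, adjusted p = 0.133) and Loxl4 (98.9 ± 29.8 against 91.8 ± 26.0, adjusted p = 0.736) did not pass, although Loxl2 passed as lower without replicate 5 before culture.

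**Figure D3:**
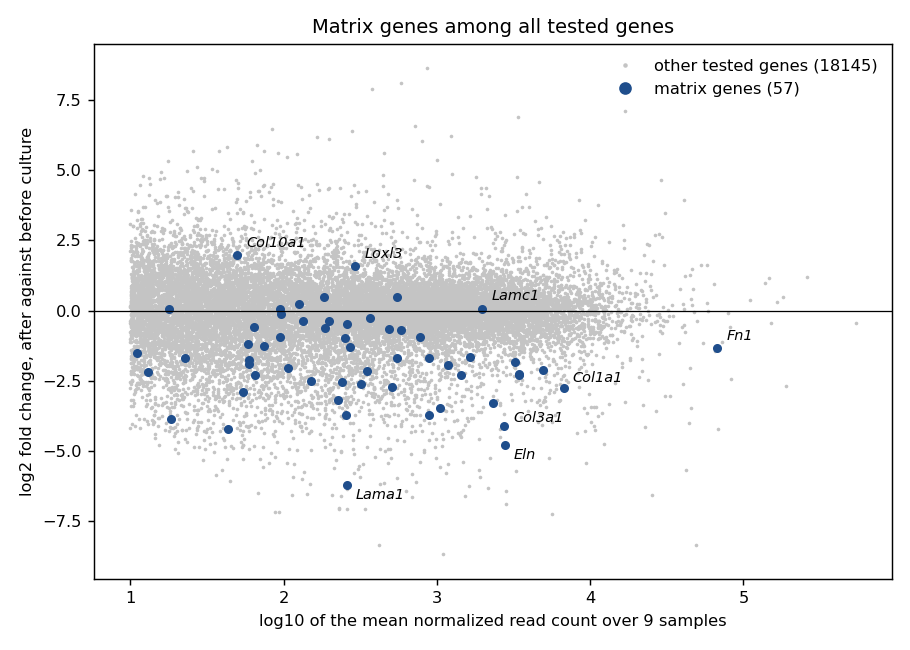
Log2 fold change, after against before culture on the log2(value + 1) scale, against log10 of the mean normalized read count over the 9 samples, for 57 tested matrix genes (large blue points) and 18145 other tested genes (small grey points). Most matrix genes lie below 0 at every level of abundance, with Fn1 at the right edge and Lama1 lowest at −6.22.

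Divided by the length of the longest transcript, levels can be set beside each other. Fn1 was the highest matrix gene per kilobase in both groups, at 11016 normalized counts per kb before culture and 4438 after. Sparc and Col1a1 followed before culture, at 2329 and 1820 per kb, and Bgn was the fourth at 1788. After culture Bgn, at 500.2 per kb, and Sparc, at 467, came next. Lamc1 moved from rank 12 to rank 5 (254 and 268 per kb), whereas Eln moved from rank 5 to rank 18 (1256 and 48.4 per kb) and Col3a1 from rank 7 to rank 16 (845 and 49.96 per kb).

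Chains that assemble into the same protein were set beside each other as the ratio of their normalized counts in each sample. These counts were not divided by transcript length, so a ratio near 1 does not mean equal levels. The 8 pairs were chosen after their values had been seen, so the ratios are a description, and no test of them is reported. The ratio of Col1a1 to Col1a2 was 2.76 ± 0.164 before culture (SD, n = 5) and 4.06 ± 0.361 after (SD, n = 4). That of Col6a3 to Col6a1 was 0.995 ± 0.0646 and 2.92 ± 0.555. That of Col5a1 to Col5a2 was 1.29 ± 0.0980 and 0.778 ± 0.0886. In these 3 pairs the groups did not overlap.

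Col4a3 to Col4a4 went from 0.722 ± 0.172 to 0.403 ± 0.103, with 1 uncultured and 1 cultured sample close together at 0.525 and 0.521. Against Lamc1, Lama5 went from 1.15 ± 0.120 to 0.229 ± 0.0530 and Lamb2 from 0.426 ± 0.0460 to 0.0617 ± 0.0133, without overlap. The head-to-head genes Col4a1 and Col4a2 had a ratio of 1.42 ± 0.0307 before and 1.57 ± 0.115 after, and Col6a1 to Col6a2 one of 1.19 ± 0.124 and 1.42 ± 0.189. The groups overlapped for both of these last pairs.

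**Figure D4:**
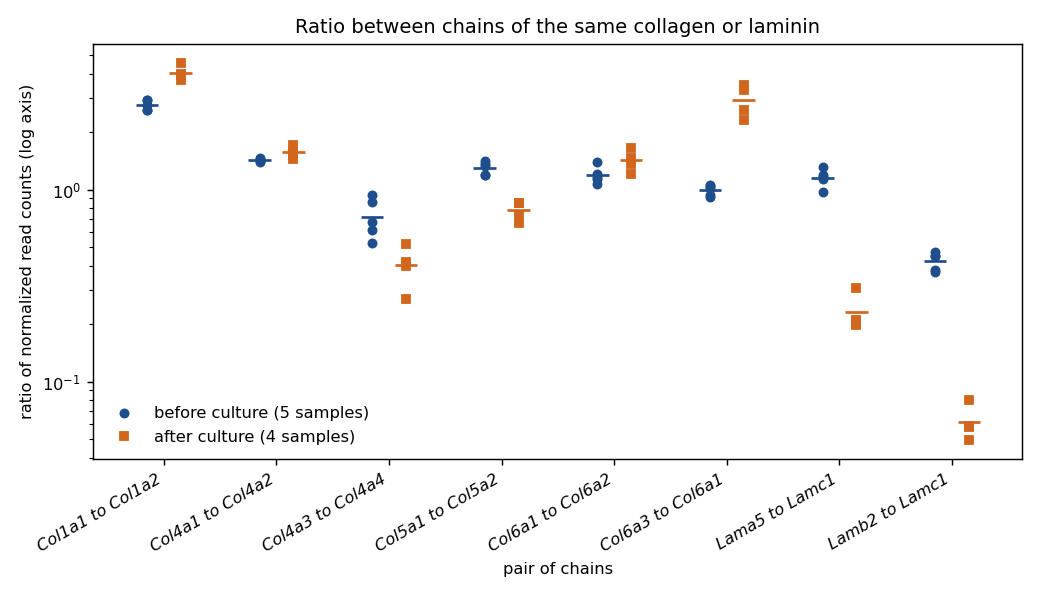
Ratio of normalized read counts (log axis) between chains of the same collagen or laminin in each of the 5 samples before and 4 samples after culture, with a bar at each group mean. The ratio of Col4a1 to Col4a2 stays between 1.38 and 1.71 in all samples, whereas Lamb2 to Lamc1 goes from a mean of 0.426 to 0.0617.

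Samples within a group differed in matrix level as a whole. Before culture, replicate 3 was the highest sample for 31 of 57 tested matrix genes, or 54.4%, against 21.1% of all tested genes. Replicate 5, which had the fewest reads, was the lowest for 33, or 57.9%, against 20.7% of all genes. After culture, replicate 2 was the highest for 29, or 50.9%, against 33.0%, and replicate 4 the lowest for 24, or 42.1%, against 17.8%. Members of one sample share its library, so these counts describe the samples and are given without a test.

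Markers of other cell types were counted beside the matrix genes, against the 34.6% of all tested genes that fell. Of 11 tested fibroblast markers 11 fell, with a median log2 fold change of −3.08 and a summed count of 3161 to 4620.0 per sample before culture and 641 to 1171 after. The fibroblast marker Pdgfra fell least of those named here, from 800.4 ± 165 to 569 ± 188, while Tcf21 went from 63.4 to 6.43 and Dpt from 323 to 41.2. Twist1 was too low to test, with 1, 3, 1 and 1 reads after culture. Endothelial markers fell in 10 of 10 cases (sum 26610.0 to 38533 before, 3406 to 4538 after) and mesothelial markers in 4 of 4 (554 to 889.7 before, 100.1 to 143 after). Epithelial markers fell in 11 of 14 and rose in 1 (27748 to 46614 before, 6771 to 11181 after). The 1 that rose was Foxj1 (7.60-fold), and Krt8 and Krt18 did not pass. Not all of this list moved together. In replicate 4 before culture Sftpc (16826) was the highest of the uncultured samples, while Napsa (7064) and Cdh1 (5303) were the lowest. Smooth muscle and pericyte markers fell in 5 of 10, with 5 not passing (1433 to 2843 before, 1043 to 1532 after). Neutrophil markers fell in 7 of 7 with a median log2 fold change of −4.28 (12808 to 22048 before, 824 to 1701 after). Of 6 T and NK cell markers 3 fell (Ncr1, Klrb1c and Gzma), Cd3g rose, and Cd3d and Cd3e did not pass. Platelet markers fell in 3 of 5 and rose in 2, and B cell markers fell in 0 of 4 and rose in 1. The part of any of these cells in the matrix changes was not tested.

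Of 12 macrophage and monocyte markers 6 fell, 1 rose and 5 did not pass, and their sum was 54200.4 to 82379 before culture and 33329 to 60144 after, with overlap. Replicate 4 was the lowest uncultured sample for both this sum and Fn1, and replicate 2 the highest cultured sample for both. In the 4 cultured samples the order of Fn1 was that of the macrophage sum, from replicate 3 through replicates 1 and 4 to replicate 2. The macrophage sums of replicates 1 and 4 were close, at 44015 and 44364. Neutrophil, mesothelial and platelet sums also ran from replicate 3 to replicate 2, with replicate 4 below replicate 1, so the order was not particular to macrophages. In the 5 uncultured samples the orders of Fn1 and the macrophage sum differed. Fn1 ran from replicate 4 through 2, 1 and 5 to 3, and the macrophage sum from replicate 4 through 5, 1 and 2 to 3. These orders are descriptions of few samples, and their cause was not tested.

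**Figure D5:**
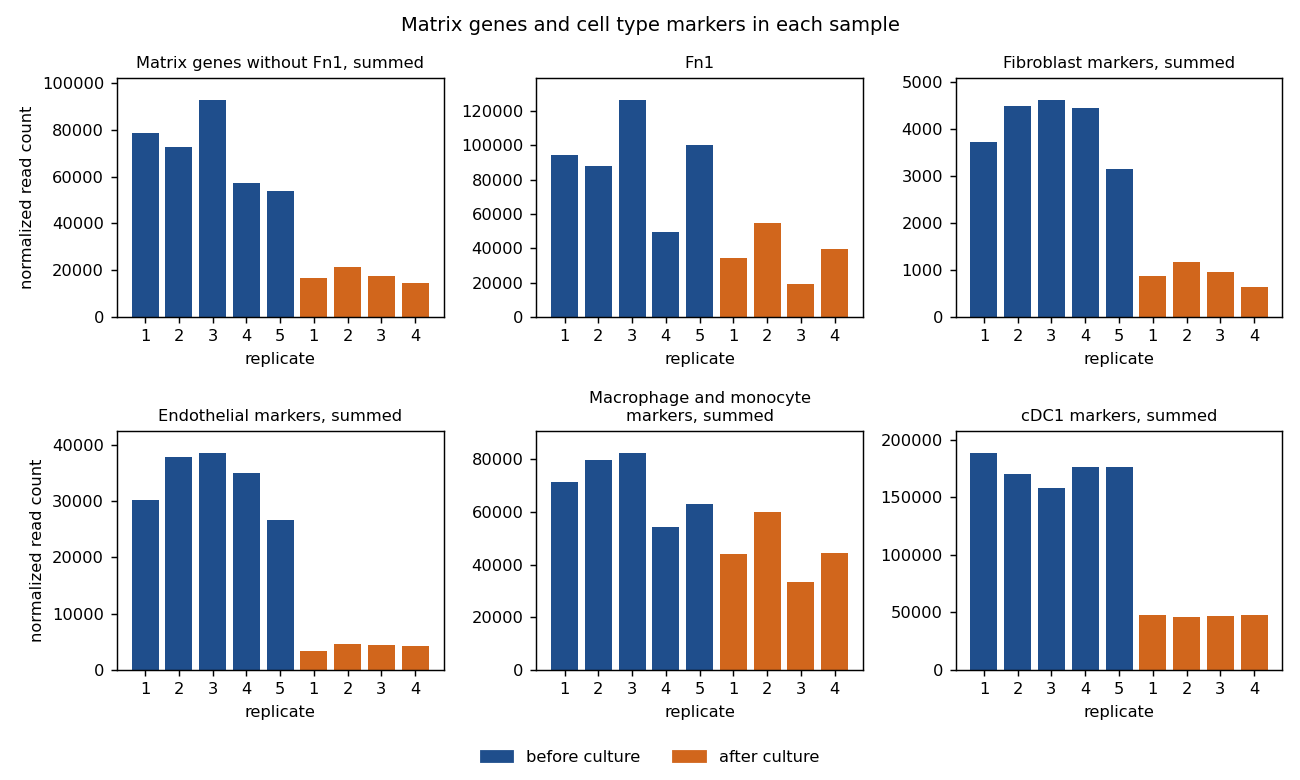
Summed normalized read counts of the matrix genes without Fn1, of Fn1 alone and of 4 lists of cell type markers in each sample, before (blue) and after (orange) culture. Matrix genes without Fn1 run from 53873 to 92680.4 before and 14449.9 to 21497 after culture, and fibroblast and endothelial markers are likewise separate, while Fn1 and macrophage markers overlap between the groups.

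Genes that act on or beside the matrix were grouped into 5 further lists. Their counts stand beside the 34.6% of all tested genes that fell and the 34.2% that rose. Groups did not overlap for 28.6% of all tested genes that were lower and 28.7% that were higher. Of 26 genes for the maturation of collagen, 16 fell, 1 rose and 9 did not pass (median log2 −0.68). Adamts2 and Adamts14, proteases that trim the amino end of procollagen, fell from 565 ± 86.5 to 172 ± 35.4 and from 403 ± 135 to 47.4 ± 17.6. Colgalt2, a galactosyltransferase of collagen, fell 5.51-fold, and P3h1, a prolyl 3-hydroxylase, rose 1.43-fold from 289 ± 51.8 to 413 ± 26.9 (log2 0.53, adjusted p = 0.00285).

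Of 23 matrix receptors 15 fell and 3 rose, with a median log2 fold change of −0.45. Itga3, an integrin subunit that binds laminins, fell from 2355 ± 176 to 513 ± 47.3, and Itga8, a mesenchymal integrin subunit, from 528 ± 175 to 43.8 ± 15.2. Itgb8, whose integrin activates TGF-beta, rose 14.1-fold from 154 ± 39.1 to 2161 ± 668 (log2 3.78, SE 0.211, adjusted p = 3.24e-09). Itgb1, the beta subunit shared by most collagen and laminin receptors, rose 1.60-fold from 8823 ± 705 to 14108 ± 731. Neither Itgb8 nor Itgb1 overlapped between the groups.

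Other basement membrane genes fell in 9 of 11 tested cases and none rose (median log2 −1.41). Nid2, which bridges laminin and collagen IV, fell 9.07-fold from 677 ± 81.4 to 74.7 ± 13.97, Egflam 13.3-fold and Fras1 7.57-fold. Other elastic fibre genes fell in 13 of 15 and none rose (median log2 −1.36). Mfap2, a microfibril protein, fell 18.7-fold from 377 ± 47.7 to 20.1 ± 5.01, Mfap4 10.6-fold and Ltbp4, a TGF-beta binding protein, 8.53-fold. Mfap4 also stands on the list of fibroblast markers.

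Other matrix glycoproteins and proteoglycans fell in 13 of 19 tested cases and rose in 3, with a median log2 fold change of −2.60. Sparcl1, a relative of Sparc, fell 18.4-fold from 2538 ± 724 to 138 ± 64.0, Prelp 13.3-fold and Podn 10.5-fold. Tnc, which encodes tenascin-C, a glycoprotein of tissue repair, rose 3.47-fold from 1492 ± 401 to 5179.8 ± 1491 (log2 1.79, SE 0.195, adjusted p = 2.53e-06). Thbs4, which encodes thrombospondin-4, rose 7.62-fold from 50.9 ± 16.6 to 388 ± 83.8 (log2 2.94, SE 0.227, adjusted p = 8.04e-08).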

How the data were processed

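Total RNA of CD103+ lung dendritic cells was measured by RNA sequencing in 5 samples before and 4 samples after culture, and samples were grouped by their titles. The deposited values are a signal per gene, normalized by the authors from read counts, in a single table. The submitters' processing notes name GRCm38 and DESeq2. The aligner, the counting tool, strandedness, annotation and filters are not given in the sources used here. All values (100%, tolerance 0.0001) were whole reads divided by 1 factor per sample, which was computed here from the steps between low values. Rows without a gene name (3782 of 49317) held 6.43 to 10.9% of reads before culture and 3.87 to 5.46% after, and were left out. Depth was 14.7 to 35.3 M reads in named genes, and no molecular identifiers are mentioned, so the spread between replicates was used as error.

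Genes whose mean over the 9 samples reached 10 were tested on the scale log2(value + 1) by limma 3.58.1 under R 4.3.3 (a single group term, mean-variance trend, two-sided, Benjamini-Hochberg over all tested genes, threshold 0.05). Fold changes are ratios of group means. Ratios of chains are given as a description, and the permutation test run on them is not reported, because the pairs were chosen after their values had been seen. Values in every sample are given for genes with a mean of at least 500, the highest member of each class from a mean of 100, genes that rose with a mean of at least 100, and the 3 smallest and 3 largest log2 fold changes. In the related lists, up to 3 genes of smallest adjusted p and up to 2 against the majority are named. The values of 1 gene are not reported here. Htra2 was named after its values were seen. The members and lists were chosen with earlier results of these data known. Transcript lengths, GC content and positions came from GENCODE M21 (GRCm38), with both length and GC for 96.5% of tested genes. Alternatives were other pseudocounts, filters and scalings, sample weights, edgeR 4.0.16 and DESeq2 1.42.0 on recovered reads, a replicate block, a GC and length correction, and leaving out each sample. On recovered reads edgeR called 12562 genes and DESeq2 12663, beside 12524 in limma. The fit was tested on simulated data in which far fewer genes changed than were called here, so that test does not cover so broad a change. Tables and figures used Python 3.11.15, NumPy 2.4.6, pandas 2.3.3, SciPy 1.17.1 and matplotlib 3.10.9.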

Additional observations from a re-analysis of the deposited data

Results flagged for a closer look

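In 54 groups of samples, the before and after values of the 27 matrix genes given in full, 2 held a sample far from the others. Chance alone would be expected to mark about 1 group in 20 (Dixon's criterion), and 2 of 54 is below that share. Col6a1 counted 223 in replicate 2 after culture, and the gap to the next sample was 0.915 of the group's range. Eln counted 358 in the same sample, with a gap of 0.897 of the range, and both gaps exceed the critical value for 4 samples. Replicate 2 after culture also had the highest summed fibroblast, macrophage, endothelial, mesothelial, neutrophil, smooth muscle and platelet markers of the cultured samples. Its sums of epithelial, dendritic cell, T and NK cell and B cell markers were not the highest. Within the platelet list, Pf4 (1113) and Ppbp (303) were highest in that sample. Itga2b (30.3), Gp9 (6.07) and Gp1ba (22.7) were lowest in it. Without replicate 2 the fall of Col6a1 and Eln remained past the threshold. The cause of the higher values was not tested.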

How the results depend on the processing

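Without 1 sample, the number of matrix genes that fell ran from 43 to 47, the number that rose from 2 to 4, and the median log2 fold change from −1.77 to −1.56. Across the 14 alternatives with all samples these ran from 40 to 46, from 2 to 7 and from −1.79 to −1.31, and the number of called genes overall from 9925 to 14150. The median was −1.31 without a filter on low values, where genes near 0 enter, and −1.46 after the GC and length correction. That correction raised the number of higher genes to 7, and to 7 with the title block as well, beside 40 lower genes. The cause was not tested. Upper quartile scaling moved the median of all genes to 0.12. Of 57 tested genes, 42 kept their call and direction in every alternative that tested them and 15 did not. All values here are log2 fold changes. After the GC and length correction the sign turned for Col27a1 (0.060), Col11a2 (0.21), Lamb1 (0.050), Loxl4 (0.34), Col18a1 (0.24) and Col8a1 (−0.027), and with the block as well for Col11a2 (0.26), Loxl4 (0.30), Col18a1 (0.10) and Col8a1 (−0.080). Loxl4 also turned with upper quartile scaling (0.0044) and quantile normalization (0.094), and without a sample it ran from −0.26 to 0.11. Col8a1 turned with edgeR (−0.018) and DESeq2 (−0.0100), and without a sample it ran from −0.13 to 0.22. Lamc1 ran from −0.025 to 0.16 and Col17a1 from −0.034 to 0.15 without a sample. None of Lamc1, Lamb1, Loxl4, Col8a1 and Col17a1 had passed the test.

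Titles number the samples in both groups, and the library names carry other numbers. Deviations of samples with the same title number correlated at 0.0807, 0.0796, −0.213 and −0.0403, so the numbers were not treated as pairing. With a replicate block by title number 46 matrix genes fell and 2 rose, and by library number 45 fell and 3 rose. In these fits the uncultured sample without a partner (replicate 5 by title, replicate 2 by library) no longer informs the difference, so the block and the loss of that sample change together. In the first Col12a1 was not called and Lamb1 was, as without replicate 5 alone, and in the second Col18a1 was not called, as without replicate 2 alone, and Loxl2 was. Col8a1 turned to −0.010 and −0.13. Each of the 4 cultured samples correlated best with the uncultured sample of its own library number (0.0807, 0.247, 0.349 and 0.0447), a hint from the data and not from the design. The 11 untested genes had means under 10, and whether depth was the reason was not tested.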
